A study of Arabidopsis thaliana with 24 samples.

Results

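The clade A protein phosphatases 2C (PP2C) of abscisic acid (ABA) signalling were followed in rosette shoots of Arabidopsis thaliana. The 9 genes were taken by locus from a table of 24503 genes, with earlier results of these data known. They were ABI1 (AT4G26080), ABI2 (AT5G57050), HAB1 (AT1G72770), HAB2 (AT1G17550), PP2CA (AT3G11410), AHG1 (AT5G51760), HAI1 (AT5G59220), HAI2 (AT1G07430) and HAI3 (AT2G29380). The table itself names HAI1 as SAG113 and HAI2 as AIP1. RNA sequencing compared the Columbia wild type Col-0 with jaz4-1, a single T-DNA insertion line (SALK_141628C) of the jasmonate signalling repressor gene JAZ4 in the same background. No hormone or stress was applied to either line. Soil-grown plants of 3 weeks under a 12 h photoperiod at 22 °C were harvested at dawn (zeitgeber time 0, ZT0), midday (ZT6), dusk (ZT12) and midnight (ZT18). Each of the 8 groups held 3 biological replicates, and each replicate was a pool of 6 rosettes, so variation between single plants was not measured.

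In ABA signalling, clade A PP2Cs dephosphorylate SnRK2 kinases and keep them inactive. ABA bound to a PYR/PYL receptor lets the receptor occupy the phosphatase, and the released kinases then phosphorylate transcription factors such as ABF3 and, in guard cells, ion channels such as SLAC1. ABA also raises the transcripts of several of these phosphatases, which is known as a negative feedback of the pathway. ABI1 and ABI2 are the genes of the dominant ABA-insensitive mutants, HAB1 and HAB2 are a pair of close homologues, PP2CA (also AHG3) acts in seeds and guard cells, AHG1 is known mainly from seeds, and HAI1, HAI2 and HAI3 are the highly ABA-induced branch.

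The 24 libraries held 16832226 to 22644745 recovered reads, with 18959 to 21863 genes detected. Col-0 at ZT0 replicate 2 and jaz4-1 at ZT6 replicate 2 had fewer detected genes than the rest. JAZ4 itself had 0 to 23 reads in the Col-0 libraries (median 5.5) and 0 to 8 in jaz4-1 (median 2), so at this depth its level checks the labels only weakly. The 4 rosette leaf markers summed to 32137 to 71144 CPM (reads scaled to the library total) in every library, and the floral organ markers to at most 1.70 CPM. The seed markers summed to at most 3.55 CPM, and that highest value came from Col-0 at ZT6 replicate 3.

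Of the 9 phosphatase genes, 5 were read at appreciable depth in every rosette library. Compared per length, as CPM per kilobase of exon, PP2CA had the highest median over the 24 libraries, 29.2 (range 17.5 to 71.4). HAB2 followed at 17.9 (10.6 to 24.03), ABI1 at 15.9 (6.68 to 25.8) and HAB1 at 13.2 (6.15 to 63.2). The ranges of these 4 over all libraries and times overlapped. Within each library PP2CA stood above HAB2 and ABI1, as at 20.9 against 17.8 and 17.7 in jaz4-1 at ZT12 replicate 1. HAB1 was above PP2CA in every library of ZT0 and below it at the other times. HAB2, ABI1 and HAB1 changed order between libraries. ABI2 lay lower, at 2.82 CPM per kilobase, and its highest library (5.62) stood below the lowest library of each of the other 4. HAI1 (0.817), HAI2 (0.155) and HAI3 (0.0313) followed with ranges that started at 0, and AHG1 had a median of 0. AHG1 had 24 reads in all, found in 4 libraries, and HAI3 had 108 reads in 13 libraries. Both fell below the filter on low values, which left 7 of the 9 genes for the tests across all 19614 genes. RefSeq places ABI1 on the minus strand of chromosome 4 (13219915 to 13222376, TAIR10.1), where 22 bases of its span overlap MEK1 on the other strand; reads in those bases cannot be told apart, since it is not stated whether the counting used strand. No other of the 9 genes overlapped a neighbour.

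The upstream regions are shown for PP2CA, the gene that differed between the lines, for HAB1, the gene with the smallest p for change over the day, and for HAI2 and HAI3, whose reads gathered in a few libraries. Each window runs from 250 bases before to 50 after the RefSeq gene start (TAIR10.1), read 5′ to 3′ on the gene's strand. Capitals mark ACGTG, the core of the ABA-responsive element (ABRE) that ABF-type factors are known to bind, on either strand.
PP2CA, chr3:3585801-3586100, minus strand: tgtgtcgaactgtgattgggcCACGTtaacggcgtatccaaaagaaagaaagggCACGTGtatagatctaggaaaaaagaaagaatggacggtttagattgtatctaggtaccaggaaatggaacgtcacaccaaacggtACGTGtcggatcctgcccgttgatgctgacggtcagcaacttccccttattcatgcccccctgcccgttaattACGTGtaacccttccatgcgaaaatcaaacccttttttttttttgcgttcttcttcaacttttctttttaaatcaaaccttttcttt
HAB1, chr1:27389698-27389997, plus strand: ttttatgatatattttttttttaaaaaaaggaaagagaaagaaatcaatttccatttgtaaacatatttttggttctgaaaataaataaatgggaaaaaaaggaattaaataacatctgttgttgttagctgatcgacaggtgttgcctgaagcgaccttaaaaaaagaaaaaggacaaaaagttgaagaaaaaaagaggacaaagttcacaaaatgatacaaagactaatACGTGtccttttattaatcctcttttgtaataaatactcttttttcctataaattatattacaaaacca
HAI2, chr1:2282779-2283078, minus strand: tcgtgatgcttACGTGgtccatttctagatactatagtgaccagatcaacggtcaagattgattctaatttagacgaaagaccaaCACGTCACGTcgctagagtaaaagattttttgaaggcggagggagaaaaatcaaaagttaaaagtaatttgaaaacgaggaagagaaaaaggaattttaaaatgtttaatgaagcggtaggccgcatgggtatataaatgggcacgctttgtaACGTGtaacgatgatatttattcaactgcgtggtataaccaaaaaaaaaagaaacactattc
HAI3, chr2:12608425-12608724, plus strand: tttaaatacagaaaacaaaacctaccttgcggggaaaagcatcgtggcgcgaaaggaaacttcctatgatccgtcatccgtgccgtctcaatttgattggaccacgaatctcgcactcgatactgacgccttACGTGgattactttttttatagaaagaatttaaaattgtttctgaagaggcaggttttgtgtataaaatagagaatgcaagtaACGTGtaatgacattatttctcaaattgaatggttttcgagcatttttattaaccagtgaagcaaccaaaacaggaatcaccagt
PP2CA and HAI2 each held the ABRE core at 4 places, HAI3, HAB2 and AHG1 at 2, and HAB1 at 1 place. No ABRE core was found in the windows of ABI1, ABI2 and HAI1, which are not shown. The reads of HAI1 gathered in a few libraries too, as described below. Thus 6 of the 9 windows held it, against 27.5% of the 22710 windows of the same length over all genes. In PP2CA 1 of the places was the palindrome CACGTG (the G-box), which reads as the core on both strands and was present in 8.49% of all windows and in 2 of the 9. The other motifs searched on both strands were AAATATCT (the evening element, 5.90% of all windows, found in ABI2), AAAAATCT (the CCA1 binding site, 7.88%, found in HAI1 and HAI2), CCGAC (the DRE core, 15.6%, found in AHG1 and PP2CA) and TTGAC (the W-box core, 50.7%, found in 4 of the 9). These matches are letters in a window and were not tested as binding sites.

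PP2CA was higher in jaz4-1 than in Col-0 at midday. The 3 Col-0 libraries at ZT6 held 1034, 1448 and 1547 normalised reads of PP2CA, and the 3 jaz4-1 libraries held 2741, 2447 and 2521. All jaz4-1 libraries were above all Col-0 libraries, and the ratio of the means was 1.91. The log2 difference was 0.96 ± 0.19 (SE; limma-trend, adjusted p = 0.00699 over all genes tested). PP2CA was the only 1 of the 7 tested genes to pass at ZT6, where 2.95% of all genes passed. The authors' deposited table gives a log2 fold change of 0.87 with an adjusted p of 1.64e-06 for PP2CA at this time. Without Col-0 replicate 1, the lowest library, the difference was 0.78 and was no longer called (adjusted p = 0.0749). In whole rosettes a change in RNA per cell and a change in the share of a cell type cannot be told apart. At ZT6 the summed guard cell markers were 29.1 to 32.03 CPM in Col-0 and 25.03 to 27.2 in jaz4-1, with none of the 5 at 0, and the summed root markers, mostly PYK10, were 178 to 260 and 56.0 to 105 CPM. Their part in the PP2CA difference was not tested.

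At the other 3 times the PP2CA ranges of the lines overlapped. At ZT0 Col-0 held 704, 645 and 863 normalised reads and jaz4-1 893, 732 and 1026, a log2 difference of 0.26 ± 0.19 that did not pass (adjusted p = 0.60). At ZT18 Col-0 held 1157, 837 and 850 and jaz4-1 1032, 1186 and 1205, a difference of 0.28 ± 0.19 (adjusted p = 1.00). At ZT12 the lines lay at 873 to 1128 and 808 to 1451. Averaged over the 4 times, PP2CA was higher in jaz4-1 by 0.38 ± 0.10 on the log2 scale (adjusted p = 0.0210), again as the only 1 of the 7, while 4.68% of all genes passed this comparison. The test of whether the line difference depended on time did not pass for PP2CA (adjusted p = 0.549). None of the 7 genes passed that test, in which 0.194% of all genes did. An unadjusted p under 0.05 was found for 2 of the 7, beside 1338 of all 19614 genes tested. None of the 7 passed with edgeR, DESeq2 or limma-voom.

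**Figure D1:**
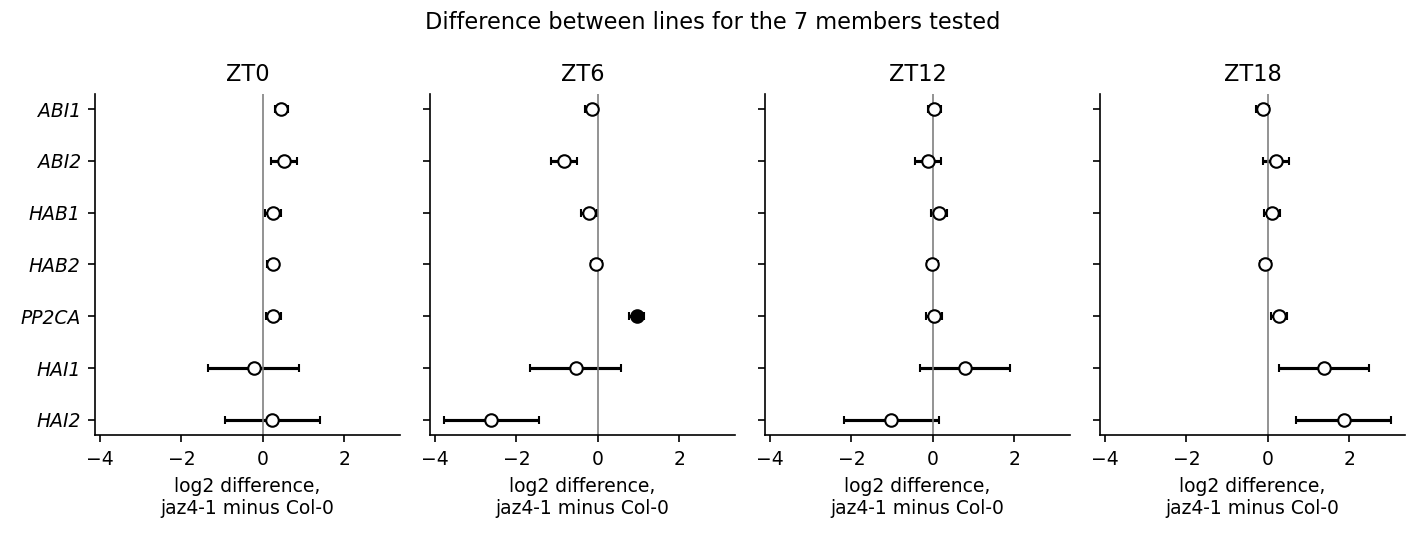
Log2 difference between jaz4-1 and Col-0 for the 7 genes tested, by sampling time; points are the fitted differences, bars the standard error, and filled points passed an adjusted p of 0.05. Only PP2CA at ZT6 (0.96) is filled, and the bars of HAI1 and HAI2 are the widest.

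The other phosphatase genes did not pass between the lines at any time. At ZT6 ABI2 held 150, 146 and 217 normalised reads in Col-0 and 133, 54.3 and 118 in jaz4-1. The lines did not overlap, but the log2 difference of -0.82 ± 0.32 was not called (adjusted p = 0.152). HAI2 held 13.4, 15.96 and 63.7 in Col-0 and 9.84, 0 and 5.35 in jaz4-1 at the same time, again without overlap and without a call (log2 difference -2.62 ± 1.16, adjusted p = 0.209). Without jaz4-1 replicate 2, the lowest library for both genes and 1 of the libraries with few detected genes, the differences were -0.42 for ABI2 (adjusted p = 0.591) and -1.60 for HAI2 (adjusted p = 0.613). Across the 7 genes at ZT6, 6 of the differences were below 0, with a median of -0.21 against -0.04 over all genes. Col-0 replicate 3 was the highest of its group for 7 of the 9 genes at ZT6. HAI1, for example, held 18.6, 25.7 and 127 normalised reads in Col-0 and 23.4, 17.7 and 46.3 in jaz4-1. HAI3 was found as 2, 6 and 60 reads in the Col-0 libraries at ZT6 and as 0 in all 3 jaz4-1 libraries. At ZT0 HAI3 was found as 2, 4 and 1 reads in jaz4-1 and as 0 in all 3 Col-0 libraries. Lines without overlap made up 26.8% of all genes tested at ZT6 and 11.4% at ZT0. ABI1 at ZT0 held 282, 296 and 396 normalised reads in Col-0 and 427, 385 and 519 in jaz4-1, with overlapping lines (log2 difference 0.45 ± 0.16, adjusted p = 0.219). The guard cell markers summed to 17.3 to 31.4 CPM in Col-0 and 34.9 to 42.3 CPM in jaz4-1 at this time, and their part in it was not tested. At ZT0 none of the 7 genes passed (0.923% of all genes did). Of the 7, ABI1 alone had an unadjusted p under 0.05, beside 2556 of all 19614 genes tested. At ZT12 and ZT18 none of the 7 passed either, where 0.321% and 0.138% of all genes passed. None of the 7 had an unadjusted p under 0.05 there, beside 957 and 595 of all 19614 genes tested. At ZT0, ZT12 and ZT18 edgeR, DESeq2 and limma-voom called none of the 7. The 2 genes below the filter were compared in an exact permutation test of CPM within times (2-sided, 160000 arrangements). AHG1 had 9 reads in Col-0 and 15 in jaz4-1 (exact p = 0.900), and HAI3 had 72 and 36 (exact p = 0.721).

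Over the day, HAB1 had the smallest p of the 7 genes in both lines. Reads rescaled over all 24 libraries, which allow times to be compared, were 2394, 2503 and 2996 for HAB1 at ZT0 in Col-0 and 3124, 2260 and 4279 in jaz4-1. At ZT12 they were 439, 386 and 462 in Col-0 and 428, 395 and 646 in jaz4-1. Every dawn library was above every library of the other 3 times. The mean at ZT0 was 6.14 times the lowest mean (ZT12) in Col-0 and 7.66 times the lowest (ZT6) in jaz4-1, and HAB1 passed the test of change over time in both lines (adjusted p = 5.54e-10 and 9.81e-11). The fall from ZT0 to ZT6, a step called for 40.2% of all genes in Col-0 and 42.5% in jaz4-1, was -2.44 ± 0.19 in Col-0 and -2.89 ± 0.19 in jaz4-1 on the log2 scale. A rise from ZT12 to ZT18 of 0.80 ± 0.19 in Col-0 was called as well (adjusted p = 0.00687; 15.4% of all genes passed), ahead of the dawn maximum. In jaz4-1 this rise was 0.75 ± 0.19 and was also called (limma-trend, adjusted p = 0.0123), as were 2563 of the 19614 genes tested. The jaz4-1 call was lost without replicate 1 or 2 of ZT12 or replicate 1 of ZT18 (adjusted p = 0.0603, 0.0838 and 0.0727).

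PP2CA had its maximum at midday in both lines. Its rescaled reads at ZT6 were 1114, 1551 and 1666 in Col-0 and 3006, 2654 and 2726 in jaz4-1. From ZT0 to ZT6 it rose by 0.74 ± 0.19 on the log2 scale in Col-0 (adjusted p = 0.00350) and by 1.45 ± 0.19 in jaz4-1 (adjusted p = 2.31e-06). From ZT6 to ZT12, where 11.7% of all genes passed in Col-0 and 19% in jaz4-1, it fell by 0.72 in Col-0 and by 1.65 in jaz4-1. The Col-0 fall was not called without replicate 2 or 3 of ZT6 or replicate 2 of ZT12 (adjusted p = 0.0662, 0.0834 and 0.0847). The highest mean was 1.68 times the lowest in Col-0 and 3.05 times the lowest in jaz4-1. The steps themselves were not shown to differ between the lines, since the difference was 0.71 ± 0.27 for the rise (adjusted p = 0.414) and -0.93 ± 0.27 for the fall (adjusted p = 0.475). None of the 7 genes passed in any of the 4 adjacent steps compared between lines, where 0.0408%, 0.0306%, 0.0714% and 0% of all genes passed. An unadjusted p under 0.05 was found for 3, 1, 0 and 1 of the 7. Over all 19614 genes tested it was found for 1794, 1398, 552 and 583. PP2CA passed the test of change over time in both lines (adjusted p = 0.00465 and 4.90e-07), though not in Col-0 without replicate 3 of ZT6 (adjusted p = 0.0542).

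ABI1 was lowest at dawn. Its rescaled reads at ZT0 were 326, 348 and 459 in Col-0, and every Col-0 library of the other times lay between 646 and 768. The rise from ZT0 to ZT6 in Col-0 was 0.90 ± 0.16 (adjusted p = 1.24e-04). In jaz4-1 ABI1 passed the test over time at an adjusted p of 0.0345, which was lost without replicate 1 or 2 of ZT0 (0.0939 and 0.133), without replicate 3 of ZT12 (0.136), or with the jaz4-1 libraries alone (0.102). ABI2, a gene close to ABI1 in sequence, rose from ZT0 to ZT6 in Col-0 by 0.91 ± 0.32 (adjusted p = 0.0262), but this call was lost without Col-0 replicate 2 of ZT0 (0.50, adjusted p = 0.208) or replicate 3 of ZT6 (0.73, adjusted p = 0.122). Over all 4 times ABI2 missed the threshold in Col-0 with limma-trend (adjusted p = 0.0534) and passed with limma-voom (0.0393), with DESeq2 (0.0266) and without both libraries with few detected genes (0.0192). From ZT0 to ZT6, 5 of the 7 genes passed in Col-0 (40.2% of all genes did) and 2 of the 7, PP2CA and HAB1, in jaz4-1 (42.5%). In Col-0 HAI2 rose beside PP2CA, ABI1 and ABI2, and HAB1 fell. The HAI2 call was lost with limma-voom (adjusted p = 0.105), without Col-0 replicate 2 of ZT0 (0.0722), without Col-0 replicate 3 of ZT6 (0.0854) and without both libraries with few detected genes (0.0542). HAB2 stayed between 667 and 1067 rescaled reads in all 24 libraries and passed in neither line (adjusted p = 0.192 in Col-0 and 0.150 in jaz4-1). HAI2 rose from ZT0, where Col-0 had 1, 0 and 3 reads, to ZT12, where it had 38, 14 and 148 (log2 difference 4.13 ± 1.17, adjusted p = 0.00647; 3.16 and 0.0530 without Col-0 replicate 3 of ZT12, and 0.0717 with limma-voom), a step called for 44.6% of all genes. In all, 4 of the 7 genes (HAB1, PP2CA, ABI1, HAI2) changed over time in Col-0 and 3 of the 7 (HAB1, PP2CA, ABI1) in jaz4-1. HAI2 did not pass this test in Col-0 with limma-voom (adjusted p = 0.0931). Leaving out 1 library gave 3 to 6 genes in Col-0 and 2 to 3 in jaz4-1. The count of 3 in Col-0 was found without Col-0 replicate 3 of ZT6, where PP2CA was not called. In most of these fits HAI3 passed the filter too, so the counts are not out of the same 7 genes. HAI3 passed it through its high libraries, Col-0 at ZT6 replicate 3 (60 reads) and jaz4-1 at ZT12 replicate 3 (24 reads). Any HAI3 call in Col-0 would thus rest on a library that let it pass. The counts of 4 and 3 of the 7 stand beside 49.1% and 53.5% of all genes, and shares near the background are no result about the family.

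**Figure D2:**
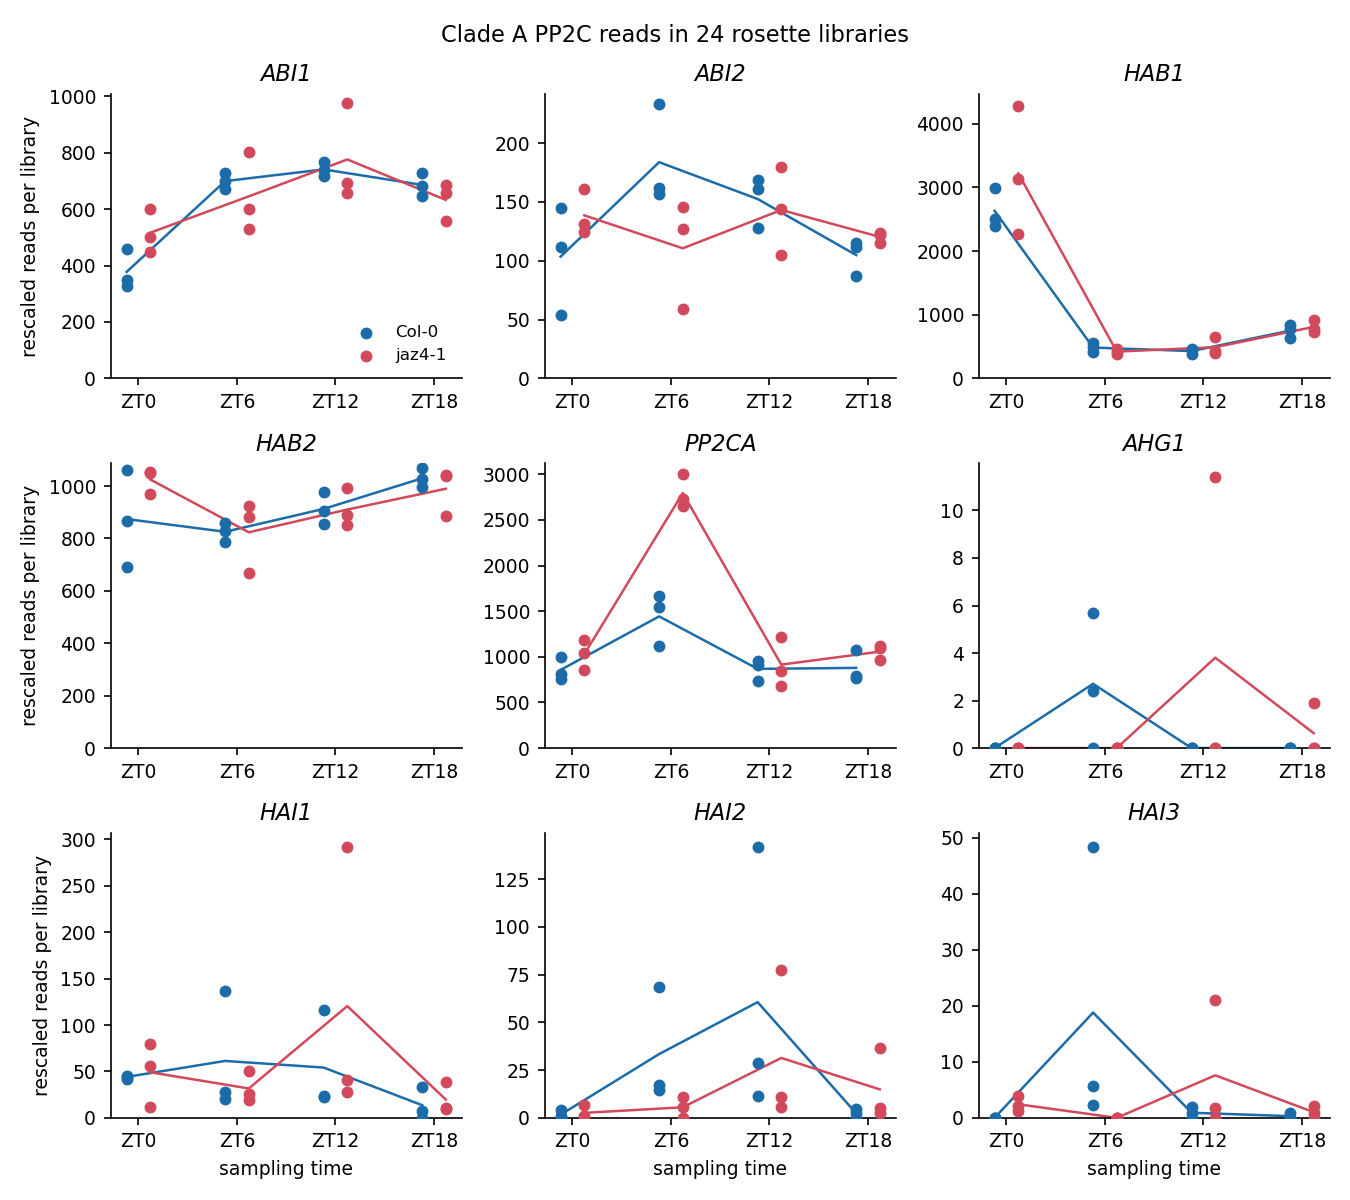
Rescaled reads of each of the 9 genes in the 24 libraries (linear axes from 0, a scale of its own for each gene); points are libraries, lines join the means of 3 libraries, blue is Col-0 and red is jaz4-1. HAB1 is highest at ZT0, PP2CA at ZT6 with all jaz4-1 points above Col-0, and AHG1 and the HAI genes have 1 library far above the rest of some groups.

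HAB1 and PP2CA peaked at different times, and the make-up of the family's reads turned over within the day. At ZT0 HAB1 supplied 54.0% ± 2.5 (SD, n = 3) of the reads of all 9 genes in Col-0 and 53.0% ± 6.2 in jaz4-1. At ZT6 it supplied 12.9% ± 1.7 and 8.72% ± 0.55. PP2CA supplied 17.5% ± 0.3 and 17.3% ± 0.7 at ZT0, and at ZT6 38.3% ± 4.6 in Col-0 and 58.0% ± 2.2 in jaz4-1. At ZT6 the PP2CA shares of the lines did not overlap, with 33.2 to 42.2% in Col-0 and 55.9 to 60.2% in jaz4-1. HAB2 was the gene with the largest mean share at ZT12 and ZT18 in Col-0, at 28.4% ± 2.0 and 29.8% ± 1.4. These are shares of reads, not per length, and a share of 1 gene moves with the levels of the others.

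**Figure D3:**
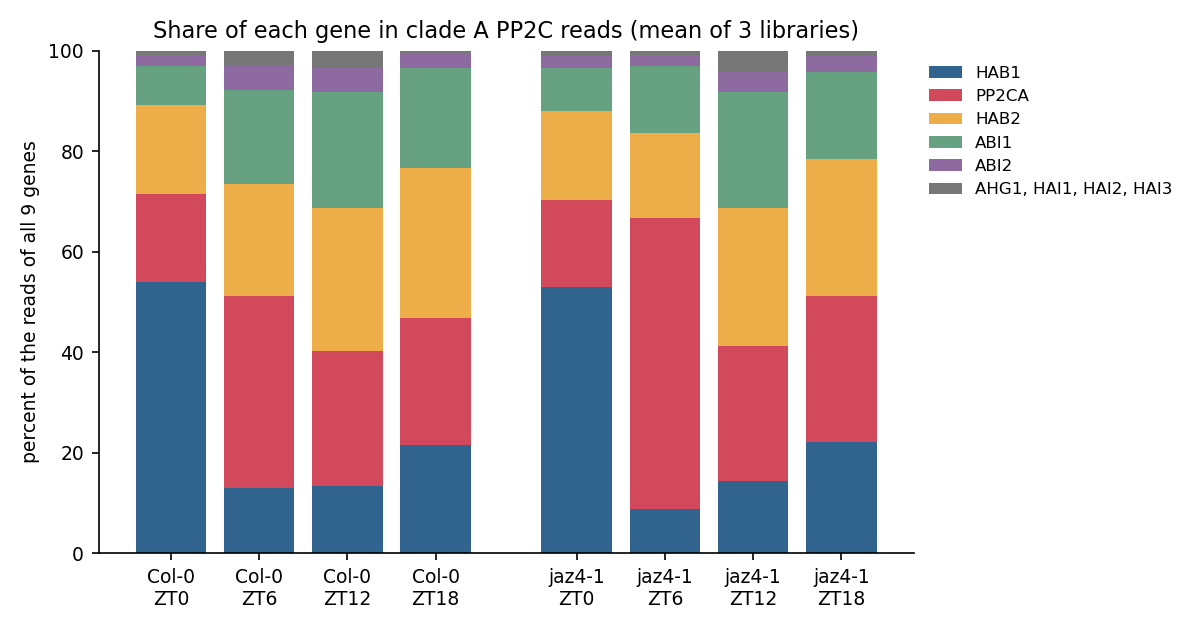
Mean percent of the reads of all 9 genes that each gene supplied in each group (3 libraries a group, stacked to 100%, with AHG1 and the 3 HAI genes drawn as 1 part). HAB1 is the largest part of the bars at ZT0, and PP2CA takes 38.3% in Col-0 and 58.0% in jaz4-1 at ZT6.

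The HAI genes and AHG1 varied widely between replicates of a group. The median coefficient of variation within groups was 91.2% for HAI1 and 122% for HAI2, against 7.34% for HAB2 and 15.7% for PP2CA. HAI1 at ZT12 in jaz4-1 had 33, 49 and 333 reads, at ZT12 in Col-0 32, 28 and 121, and at ZT6 in Col-0 18, 29 and 169. In each of these 3 groups replicate 3 was the high library, and these 3 libraries were also the highest of their group for HAI2 and HAI3, with 148 HAI2 reads in Col-0 at ZT12 and 60 HAI3 reads in Col-0 at ZT6. For HAI3 in Col-0 at ZT12 the highest library held only 2 reads, against 0 and 1. In jaz4-1 at ZT18 the high library was instead replicate 2, with 41 HAI1 reads against 12 and 9 and 39 HAI2 reads against 3 and 5. Of the 24 AHG1 reads, 13 came from jaz4-1 at ZT12 replicate 3. Neither HAI1 nor HAI2 passed between the lines at any time.

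Those libraries also stood out for ABA response genes. In Col-0 at ZT6 replicate 3, 18 of the 21 ABA response genes listed were at their group's highest, as were 18 of 21 in jaz4-1 at ZT12 replicate 3 and 17 of 21 in Col-0 at ZT12 replicate 3. Over all tested genes, these libraries were the highest of their group for 38.2%, 39.3% and 38%. In jaz4-1 at ZT18 replicate 2 it was 15 of 21, against 36.7% of all tested genes. RAB18, a dehydrin gene widely used as an ABA marker, had 93.5, 105 and 8942 rescaled reads in the 3 Col-0 libraries at ZT6. RD29B, another such marker, had 3.34, 18.0 and 1413 there. In jaz4-1 at ZT12 RAB18 had 21.8, 16.8 and 585. In Col-0 at ZT12 RAB18 had 38.2, 27.3 and 69.1, so the high library of that group exceeded its neighbours far less in this marker. What these libraries share beyond the values given was not tested. The seed markers, which include the ABA-responsive EM1 and EM6, summed to 80 reads in Col-0 at ZT6 replicate 3 and to 0 and 3 reads in the other replicates of that group. PP2CA was also highest of its Col-0 group in this library, at 1547 normalised reads, which was below each of the 3 jaz4-1 libraries. Without this library the PP2CA difference at ZT6 was 1.07 (adjusted p = 0.00892).

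**Figure D4:**
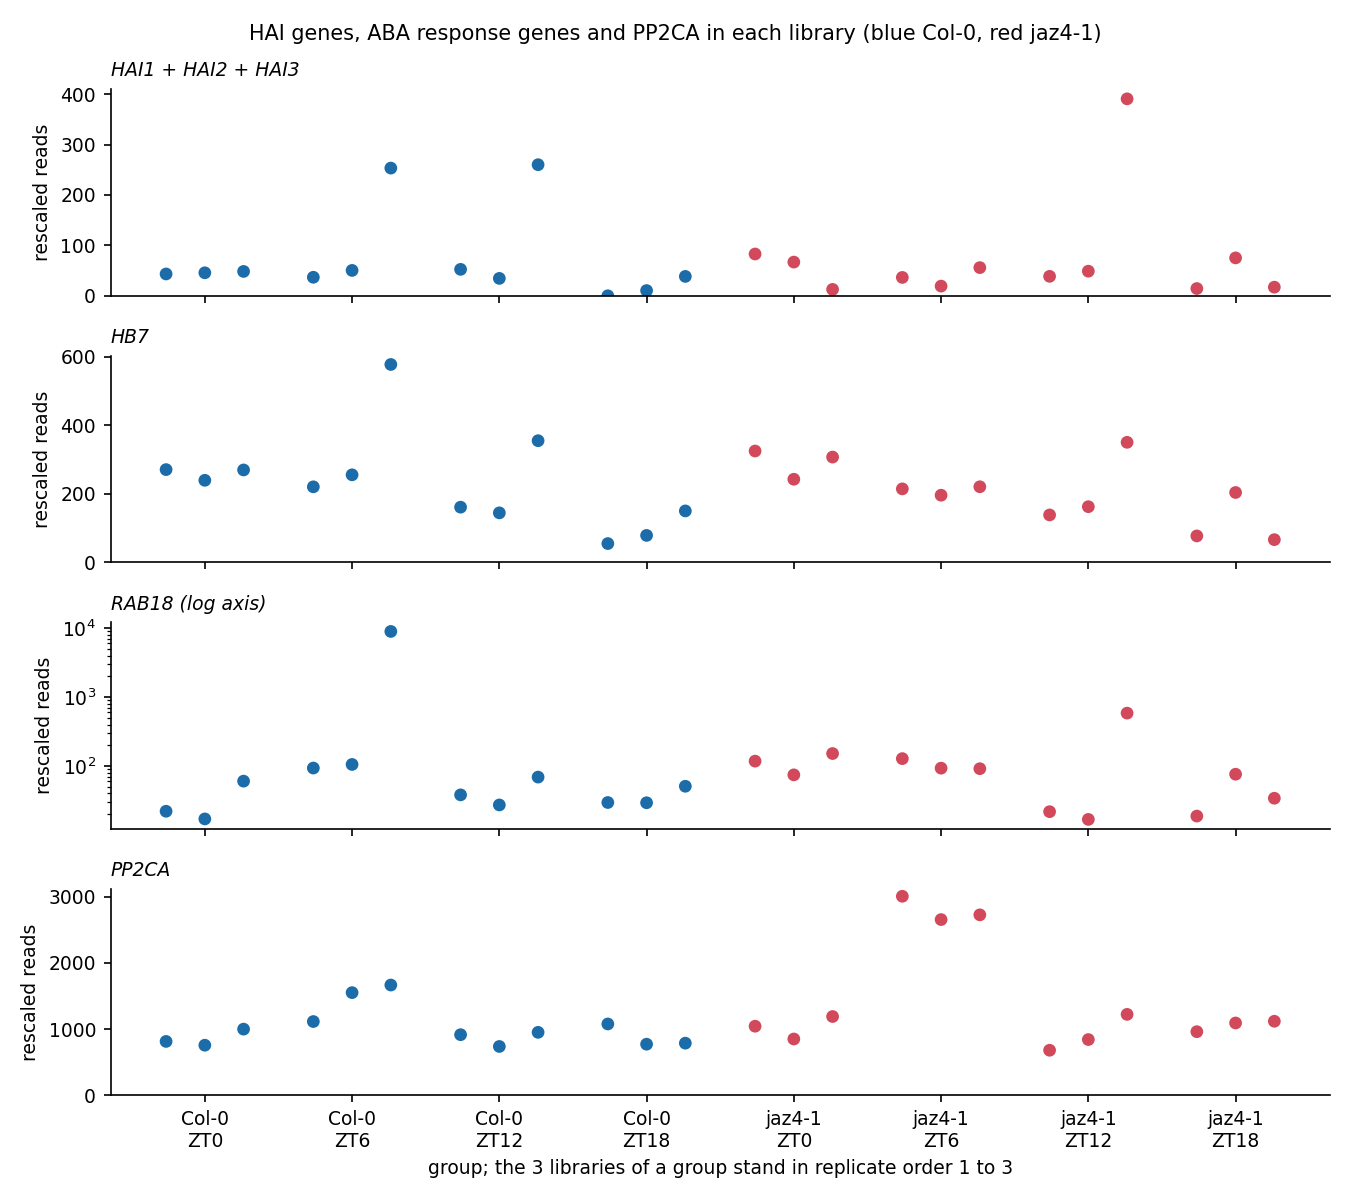
Rescaled reads in each of the 24 libraries for HAI1, HAI2 and HAI3 summed, for the ABA response genes HB7 and RAB18 (RAB18 on a log axis, the others linear from 0), and for PP2CA; points are libraries, blue Col-0 and red jaz4-1. Replicate 3 of Col-0 at ZT6, of Col-0 at ZT12 and of jaz4-1 at ZT12 stands high for the HAI genes and HB7, while PP2CA is highest in the 3 jaz4-1 libraries at ZT6.

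Among the other ABA genes at ZT6, the receptor gene PYL5 was higher in jaz4-1, at 555, 605 and 771 normalised reads against 192, 242 and 227 in Col-0 (log2 difference 1.53 ± 0.25, adjusted p = 0.00142). It was the only 1 of 9 tested receptor genes to pass in limma-trend, edgeR and limma-voom, while DESeq2 called PYL4 as well. Beside this count and those of the lists below, 2.95% of all genes passed at ZT6 in limma-trend. An unadjusted p under 0.05 was found for 4001 of the 19614 genes tested at ZT6. DESeq2 called 1154 genes there, against 578 in limma-trend. PYL5 also passed on average over times (0.57 ± 0.13), but its direction was not the same at every time. At ZT18 it was lower in jaz4-1, at 234, 180 and 270 normalised reads against 311, 276 and 277 in Col-0. At ZT0 its log2 difference was 0.17 ± 0.25. None of the 10 SnRK2 kinase genes passed at ZT6 in limma-trend; 3 of them had an unadjusted p under 0.05, DESeq2 called SNRK2.2 and SNRK2.3 and limma-voom called SNRK2.3, while edgeR called none. SNRK2.3 was nearest in limma-trend at 0.52 ± 0.18 (adjusted p = 0.108) and OST1, the guard cell kinase, lay at 0.03 ± 0.16. None of the 8 ABA transcription factor genes or the 7 ABA synthesis genes passed with limma-trend, edgeR, DESeq2 or limma-voom, and none had an unadjusted p under 0.05 in limma-trend. Of the 8 genes listed as regulators of the phosphatase proteins, RGLG1, a ubiquitin ligase that targets PP2CA, was higher in jaz4-1 at 429, 443 and 446 against 305, 317 and 308 (0.50 ± 0.12, adjusted p = 0.0236); leaving out any of 5 libraries of ZT6, all but jaz4-1 replicate 3, ended this call (adjusted p = 0.0539 to 0.0990). Of 9 genes of ABA breakdown, conjugation and transport, NPF4.6, an ABA importer, was higher at 0.74 ± 0.13 (adjusted p = 0.00353; limma-voom called CYP707A3 as well). Of 10 channel and kinase effectors, RBOHD, an NADPH oxidase, was higher at 0.60 ± 0.14 (adjusted p = 0.0220; DESeq2 called SLAH3 as well), a call that was lost without replicate 2 or 3 of Col-0 or replicate 1 or 2 of jaz4-1 (adjusted p = 0.0522 to 0.109).

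At ZT6, 2.95% of all 19614 genes tested passed in limma-trend, and 4001 had an unadjusted p under 0.05. The 21 ABA response genes were compared at the same time. None passed in limma-trend, edgeR, DESeq2 or limma-voom, while an unadjusted p under 0.05 was found for 2 genes in limma-trend (HB12 and KIN1, both below 0), 7 in edgeR, 2 in DESeq2 and 1 in limma-voom. In all, 5 lay above 0 and 16 below, and their median log2 difference was -0.55 against -0.04 over all tested genes. That median rested on Col-0 replicate 3, described above, since without it 11 of the 21 lay above 0 and the median was 0.04. At ZT12, where 0.321% of all genes passed, RD26 was the only 1 of the 21 to pass (limma-trend, 2.63 ± 0.49, adjusted p = 0.0182). RD26, a NAC factor gene induced by dehydration and ABA, held 116, 319 and 1158 normalised reads in jaz4-1 against 47.4, 63.6 and 58.0 in Col-0. Limma-voom did not call it (adjusted p = 0.476), nor did a fit of the ZT12 libraries alone (0.584). The call was lost without any 1 of the Col-0 libraries or without jaz4-1 replicate 2 (0.0580 to 0.105). In the neighbouring clade D of the PP2C family, used as a comparison of 9 genes, AT4G33920 (331, 476 and 589 normalised reads in Col-0, 1048, 967 and 1160 in jaz4-1) was higher in jaz4-1 at ZT6 by 1.22 ± 0.19 (adjusted p = 0.000712) and on average by 0.54 ± 0.09. Over time 8 of the 9 clade D genes passed in each line, against 4 (Col-0) and 3 (jaz4-1) of the 7 clade A genes tested. Over all genes 49.1% passed in Col-0 and 53.5% in jaz4-1, so the clade A counts lay near the background. The difference between the clades was not tested.

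Over the 24 libraries, the genes most like each phosphatase gene in rescaled reads (Pearson r on the log2 scale, among 9922 candidates) were as follows. For PP2CA they were NHL13 (r = 0.949, Spearman rho = 0.880), MYBR1, a MYB factor gene (0.942, 0.815), and CAD1 (0.937, 0.827). For HAB1 they were RHF2A, a RING ubiquitin ligase gene (0.980, 0.882), LRB1 (0.975, 0.846) and TOL1 (0.974, 0.832). For HAI1 they were TRX5, ELIP1 and HB-7 (0.834, 0.826 and 0.815), of which HB-7 is on the ABA response list, where it is called HB7. For HAI2 they were ANNAT1, PFK7 and pPLAIIIbeta (0.835, 0.810 and 0.807), and for ABI1 GPX6, SUGTL4 and LHT2 (0.880, 0.874 and 0.865). The likeness was lower for HAB2 (PAT05, 0.823) and for ABI2 (SWEET4, 0.783), where the rank correlation of SWEET4 was 0.220. Among the 7 phosphatase genes themselves, PP2CA had no r above 0.189 with another, and ABI1 and HAB1 ran opposite (r = -0.687). The libraries share groups and depth, and these values describe likeness only.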

How the data were processed

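Per the file headers the per-library columns hold RPKM, yet the deposited numbers behave as a signal scaled by size factors: multiplying by 1 factor per library turned 100% of the authors' values into whole reads (tolerance 0.001), and these factors equal median-of-ratios factors of each time taken alone. Per the submitters' processing notes, HISAT2, featureCounts and the build TAIR10 were used. The authors' log2 fold changes and adjusted p-values are quoted only where their deposited table is named. Line differences were tested on log2(deposited value + 1), and times on the recovered reads rescaled by median-of-ratios factors over all 24 libraries. The test was limma-trend (limma 3.58.1, R 4.3.3, robust empirical Bayes, 8 group coefficients, 16 residual degrees of freedom) on the 19614 genes passing filterByExpr (edgeR 4.0.16, minimum count 10). Fold changes are on that scale and are too small for genes with few reads. The threshold for a call was an adjusted p (Benjamini-Hochberg over all genes tested) of 0.05; ± is the SE for log2 differences. Alternatives included DESeq2 1.42.0, edgeR's quasi-likelihood test, limma-voom, other scalings, pseudocounts and filters, a replicate block and leaving out each library. The members and lists were chosen with earlier results of these data known. Named genes were the 9 members, called genes of the other lists in the comparisons described, examples needed to read a list, and the 3 genes with the highest r for each tested member. Limma-trend also called EAR1 at ZT0 (0.63 ± 0.14, adjusted p = 0.0333). On average over times it called UGT71C5 (0.29 ± 0.08, adjusted p = 0.0308) and the clade D gene AT5G06750 (0.37 ± 0.10, adjusted p = 0.0421). All were higher in jaz4-1, and each call was lost under some alternatives. The fits were tested on simulated data. PYL3, PYL13, ABI4, NCED6 and EXPA7 were not analysed here.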

Additional observations from a re-analysis of the deposited data

Results flagged for a closer look

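HAI3 was flagged because its lines stood apart in opposite directions at different times. Lines stood apart in 11.4% of all genes tested at ZT0 and in 26.8% at ZT6, a set that does not include HAI3. The share of all genes that stood apart in opposite directions was not computed. At ZT0 every jaz4-1 library had 1 to 4 reads and every Col-0 library had 0, a mean difference of 0.109 CPM. At ZT6 every Col-0 library had 2 to 60 reads and every jaz4-1 library had 0, a mean difference of -1.02 CPM. The difference between these times was not tested, the counts are within a few reads of 0 at ZT0, and 60 of the 68 reads at ZT6 came from replicate 3 of Col-0.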

How the results depend on the processing

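The count of phosphatase genes called between the lines was 0 at ZT0, ZT12 and ZT18 and for dependence on time under every alternative run, and 1 on average over times, always PP2CA. At ZT6 it was 1 under every alternative except without Col-0 replicate 1 (0); leaving out 1 library gave 0 to 1. The PP2CA difference at ZT6 ranged from 0.78 to 1.07. Over all genes the counts called moved more. With DESeq2 they were 364, 1154, 163 and 54 at ZT0, ZT6, ZT12 and ZT18, 1662 on average and 210 for dependence on time, against 181, 578, 63, 27, 918 and 38. With the libraries of 1 time alone they were 29 at ZT0 and 22 at ZT12. Without both libraries with few detected genes they were 241 at ZT6 and 5 for dependence on time. Leaving out 1 library gave 92 to 665 at ZT0, 166 to 1209 at ZT6, 22 to 126 at ZT12, 15 to 34 at ZT18, 628 to 1424 on average and 7 to 60 for dependence on time. Leaving out libraries or fitting 1 time alone uses fewer samples; the cause of the other moves was not tested. Leaving out 1 library moved the difference of AHG1 between -0.0244 and 0.0573 CPM and that of HAI3 between -0.235 and 0.0837 CPM, with no call. Replicate numbers were not used as pairs, since the labels give no shared source and not every same-numbered pair of libraries deviated together (r from -0.10 to 0.33, over 0.1 in all 3 pairs at ZT0 and in 2 of 3 at ZT6 and at ZT18). As a hint from the data that numbers may share something, 10 of 12 correlated best with their own number. A replicate block gave 601 genes at ZT6, and a replicate block within each time gave 275 at ZT0, 1319 at ZT6, 1499 on average and 68 for dependence on time; the count of phosphatase genes called between the lines was the same under both. The replicate block brought the change of ABI2 over time in Col-0 past the threshold (adjusted p = 0.00908). With HAI1, HAI2, HAI3 and AHG1 at a few reads in many libraries, depth limits what could be called for them.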
